A study of Homo sapiens with 6 samples.

Results

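The 10 genes described here encode coregulators of nuclear receptors, the proteins that a steroid receptor recruits to switch transcription of its target genes up or down. They were taken by symbol from the gene rows of the counts (NCOA1, NCOA2, NCOA3, NCOA4, NCOA7, CREBBP, EP300, NRIP1, MED1 and KDM1A), 10 of 55765 gene symbols, and all 10 had enough counts to be tested. The data are RNA-seq read counts of C4-2, a castration-resistant human prostate cancer cell line derived from LNCaP, in 6 libraries. Of these, 3 came from cells given the solvent DMSO and 3 from cells given the synthetic androgen R1881 (methyltrienolone) at 1 nM, a supraphysiological androgen level (SAL), each for 72 h in medium with serum. The libraries were numbered 1 to 3 in each group, from experiments performed independently, and C4-2 is a single line, so the replicates are cultures and not different tumors.

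A ligand-bound steroid receptor binds DNA and exposes a groove that takes up short leucine-rich motifs of coactivators. The p160 proteins NCOA1, NCOA2 and NCOA3 bind there and bring in the histone acetyltransferases CREBBP (CBP) and EP300 (p300), while MED1 links nuclear receptors to the Mediator complex and RNA polymerase II. NRIP1 (RIP140) uses the same kind of motif but mostly brings repressors such as CtBP and histone deacetylases, which makes it a ligand-dependent corepressor. KDM1A (LSD1) is a histone demethylase that works in the CoREST repressor complex and has also been described as a coactivator. NCOA4 was first described as a receptor coactivator and is also the cargo receptor for autophagy of ferritin, and NCOA7 is an estrogen receptor-associated protein of a family linked to protection from oxidation.

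Of the 10 coregulators, 2 were differentially expressed genes (DEGs), NRIP1, which rose, and NCOA7, which fell. Among all genes tested, 11.5% rose and 9.37% fell, so this is close to the share of any genes. Promoters of these genes are printed here because they are the members whose mRNA changed. NRIP1 and NCOA7 each have 3 start regions among the RefSeq promoters (250 bases before to 50 after a start, GRCh38.p14), and the counts do not tell transcripts from different starts apart. For each gene the region with the most CG dinucleotides is printed 5′ to 3′ on the strand of the gene, with every CG in capitals. The NRIP1 region lies at chr21:15064541-15064840 on the minus strand and holds 48 CG. The NCOA7 region lies at chr6:125790710-125791009 on the plus strand and holds 39 CG. The median of all 35116 RefSeq promoters was 14 CG, so both regions, picked for their CG, are of the CG-rich kind. The remaining regions held 32 and 14 CG for NRIP1 and 8 and 4 for NCOA7. In the members that were not DEGs and have an entry, the region with the most CG held from 16 (NCOA4) to 55 (NCOA1). A high CG number is thus not particular to the 2 DEGs.
NRIP1: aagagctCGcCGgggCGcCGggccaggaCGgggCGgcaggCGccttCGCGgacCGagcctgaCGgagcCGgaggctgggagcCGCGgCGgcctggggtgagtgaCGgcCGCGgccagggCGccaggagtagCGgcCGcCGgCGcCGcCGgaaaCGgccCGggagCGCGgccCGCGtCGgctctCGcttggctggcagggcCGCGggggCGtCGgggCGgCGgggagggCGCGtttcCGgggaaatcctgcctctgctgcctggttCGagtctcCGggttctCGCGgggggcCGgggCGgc
NCOA7: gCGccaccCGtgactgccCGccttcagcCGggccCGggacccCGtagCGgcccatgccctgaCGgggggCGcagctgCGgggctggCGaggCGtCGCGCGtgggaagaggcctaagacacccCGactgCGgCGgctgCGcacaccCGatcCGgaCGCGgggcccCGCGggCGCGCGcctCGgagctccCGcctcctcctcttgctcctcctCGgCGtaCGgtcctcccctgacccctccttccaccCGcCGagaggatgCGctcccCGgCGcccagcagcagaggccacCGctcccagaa

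A half-site of steroid response elements, AGAACA or its reverse complement TGTTCT, was searched in all promoters on both strands. It was found in 14.785% of all 35116 promoters and in 2 of the 17 promoters that the table holds for 9 of the members. NCOA2 has no entry there. Neither NRIP1 nor NCOA7 had a half-site in any of its 3 regions. No member promoter held the full palindromic element, a half-site followed by 3 bases and its reverse complement. Only 1 of all 35116 promoters (0.003%) held it, so its absence from 17 promoters says nothing about the members. The half-sites found in members are in NCOA1, within chr2:24491267-24491292 on the plus strand, and in CREBBP, within chr16:3880282-3880307 on the minus strand. The half-site itself begins 23 bases downstream of a start in NCOA1 and 177 bases upstream in CREBBP. These stretches, each half-site with its flanking bases, are printed on the strand of the gene with the half-site in capitals, as the only matches among the members. Both genes were among the 8 that did not pass the test. A match of 6 letters is a description of the sequence and not of binding.
NCOA1: gccgaggaggAGAACAtggcggccgc
CREBBP: ggcggcaccaTGTTCTcggggactgc

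Between 7864471 and 12532355 reads per library were counted on genes, and 6931042 to 9776990 remained without rRNA genes, which had taken from 11.87% to 27.84%. The members had between 204 and 3124 counts in each library. Levels are given as CPM, each gene's share of the TMM-scaled total of its library, so a change in RNA per cell and a change in the number of cells cannot be seen or told apart. The luminal prostate markers KLK2, KLK3, HOXB13 and FOLH1 were detected in every library, whereas KRT5 and PTPRC were at 0 counts in all 6 and KRT14, TP63 and DCN had at most 3 counts. The fibroblast marker COL1A1 was detected in every library, with counts between 14 and 75 in DMSO and between 17 and 88 in SAL, and its part in the results was not tested. KLK3, which encodes the androgen-induced antigen PSA, stood at 799.9 ± 347.1 CPM (SD, n = 3) in DMSO and 1809 ± 629.7 in SAL and rose by 1.21 on the log2 scale.

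To analyze whether SAL changes the coregulators, each gene was compared in the same-numbered libraries. A gene was called a DEG at a Benjamini-Hochberg adjusted p under 0.05 over all 16835 genes tested with edgeR's quasi-likelihood test. Of the 10 members, 1 was up-regulated and 1 was down-regulated. The members were thus DEGs about as often as all genes tested. The median log2 fold change was 0.02 over the members and -0.0011 over all genes tested.

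NRIP1, the ligand-dependent corepressor, lies on the minus strand of chromosome 21 (16333556 to 16438257 in GRCh37, the assembly of hg19). It had 162.4, 103.4 and 194.8 CPM in DMSO replicates 1, 2 and 3, whereas SAL gave 260.9, 156.7 and 327.6 CPM. Every SAL library was above the DMSO library of its number, although the groups overlapped, since SAL replicate 2 was below DMSO replicates 1 and 3. The fitted increase was 0.68 ± 0.09 on the log2 scale (estimate ± standard error, adjusted p = 6.81e-05, edgeR), which is 1.60-fold with a 95% interval from 1.40 to 1.83. The changes in the pairs were 0.68, 0.60 and 0.75 on the log2 scale, a narrow range next to the 1.98-fold range of its level over the replicate numbers. Without the block, which leaves this range in the error, the change was 0.69 with an adjusted p of 1.00 from edgeR. The exons of NRIP1 overlap those of 2 long noncoding RNA genes, over 6.61% and 1.02% of its exonic bases, and reads of either strand were counted alike.

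NCOA7, the only member called lower, lies on the plus strand of chromosome 6 (126102307 to 126253180 in GRCh37). Its levels were 50.6, 40.8 and 65.6 CPM in DMSO replicates 1, 2 and 3, against 26.1, 23.2 and 36.8 CPM in the SAL replicates. All SAL libraries were below all DMSO libraries, the only member for which the groups did not overlap. In all genes tested, the SAL libraries were all below DMSO in 3.73% and all above in 3.78%. The fitted change was -0.86 ± 0.11 on the log2 scale (estimate ± standard error, adjusted p = 3.71e-05, edgeR), a level of 0.549 times that of DMSO with a 95% interval from 0.468 to 0.646. The pairs changed by -0.95, -0.80 and -0.83. Without the replicate block, the change was -0.86 with an adjusted p of 1.00.

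**Figure D1:**
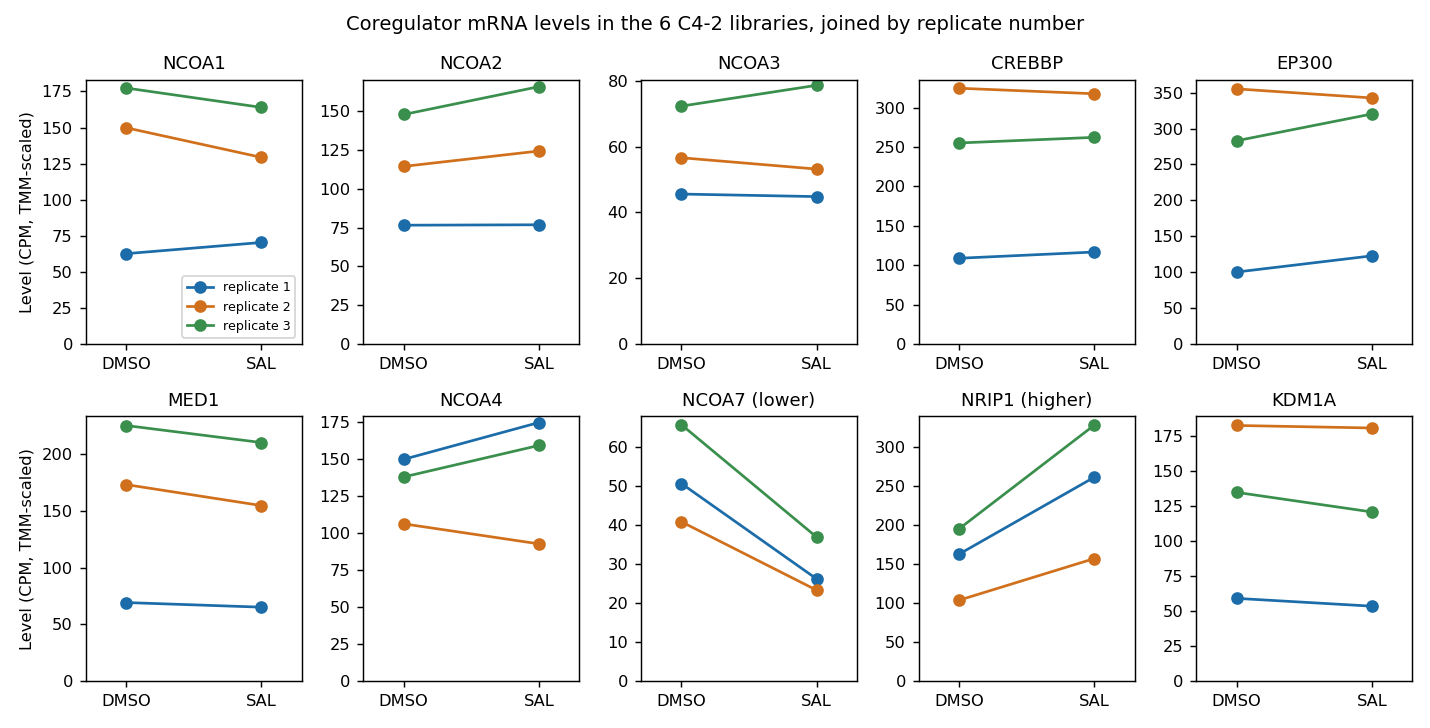
Levels of the 10 coregulators in CPM (y axes from 0, a scale of its own for each gene) in DMSO and SAL, with lines joining libraries of the same replicate number. The lines of NRIP1 all rise and those of NCOA7 all fall, while for most other genes the replicates lie apart from each other and the lines are nearly level.

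The p160 coactivators did not pass the test in either direction. NCOA1 on chromosome 2 (24714123 to 24993571 in GRCh37) had 62.7, 149.9 and 177.4 CPM in DMSO replicates 1, 2 and 3, whereas SAL gave 70.4, 129.4 and 164.0. Its log2 fold change was -0.06 (95% interval from -0.274 to 0.155, adjusted p = 0.735), higher in pair 1 and lower in the other two. The level thus differed far more between replicate 1 and the rest than between treatments.

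NCOA2 on chromosome 8 (71022017 to 71316043) had 76.6, 114.4 and 147.8 CPM in DMSO and 76.8, 124.3 and 165.7 in SAL. It was slightly higher in SAL in each of the 3 pairs, by 0.005 to 0.165 on the log2 scale, with a fitted change of 0.10 (95% interval from -0.10 to 0.30, adjusted p = 0.508). This was the only member among the 8 not called whose 3 pairs were all higher. NCOA3 on chromosome 20 (46130631 to 46285621), an oncogene known as AIB1 from its amplification in breast cancer, had 45.6, 56.6 and 72.3 CPM in DMSO and 44.8, 53.2 and 78.6 in SAL. Its log2 fold change was 0.00 (95% interval from -0.21 to 0.22, adjusted p = 0.983), so an increase of more than 1.16-fold lies outside the interval. The exons of NCOA3 overlap SULF2 on the other strand over 2.93% of their bases.

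The histone acetyltransferase genes had the highest mean CPM of the members in DMSO. CREBBP on chromosome 16 (3775055 to 3930714) had 109.0, 324.6 and 255.2 CPM in DMSO and 116.9, 317.6 and 262.3 in SAL, a log2 fold change of 0.035 (95% interval from -0.16 to 0.23, adjusted p = 0.834). EP300 on chromosome 22 (41488596 to 41576081) had 100.4, 355.1 and 283.0 CPM in DMSO and 122.9, 342.5 and 320.2 in SAL. Its change of 0.14 was the largest among the 8 genes not called, with a 95% interval from -0.07 to 0.34 (adjusted p = 0.367), and pair 2 went the other way at -0.05. In both genes, replicate 1 had less than the other replicates in both treatments.

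MED1, the receptor-binding Mediator subunit on chromosome 17 (37560538 to 37607525), had 69.1, 173.2 and 225.3 CPM in DMSO and 65.1, 154.7 and 210.3 in SAL. It was lower in SAL in all 3 pairs, by -0.09, -0.16 and -0.10, but the fitted change of -0.12 (95% interval from -0.31 to 0.08) did not pass the test (adjusted p = 0.415). Its exons overlap those of a long noncoding RNA gene on the other strand over 8.76% of their bases. KDM1A on chromosome 1 (23345936 to 23410182) gave the same picture, with 59.0, 182.5 and 134.7 CPM in DMSO and 53.4, 180.7 and 120.7 in SAL. Its pairs were -0.143, -0.015 and -0.157 and its fitted change -0.10 (95% interval from -0.30 to 0.10, adjusted p = 0.492). For both genes the fitted decrease was about the size of its standard error, 0.09.

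NCOA4 on chromosome 10 (51565199 to 51590734) had 149.8, 106.2 and 137.9 CPM in DMSO and 174.7, 92.7 and 159.2 in SAL. Replicates 1 and 3 were higher in SAL, by 0.22 and 0.21, and replicate 2 was lower, by -0.20, so the pairs did not agree in direction. The fitted log2 fold change was 0.08 (95% interval from -0.14 to 0.30, adjusted p = 0.643).

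Over the 8 members that were not DEGs, the log2 fold changes ran from -0.12 to 0.14 with standard errors between 0.09 and 0.10, and adjusted p-values between 0.367 and 0.983. The lowest and highest ends of their 95% intervals were 0.805-fold and 1.27-fold. Changes beyond these sizes lie outside all 8 intervals at this depth. For each gene, changes inside its own interval could not be told from no change. In these 8 genes, 1 was higher in all 3 pairs, 2 were lower in all 3, and 5 had pairs of both directions.

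**Figure D2:**
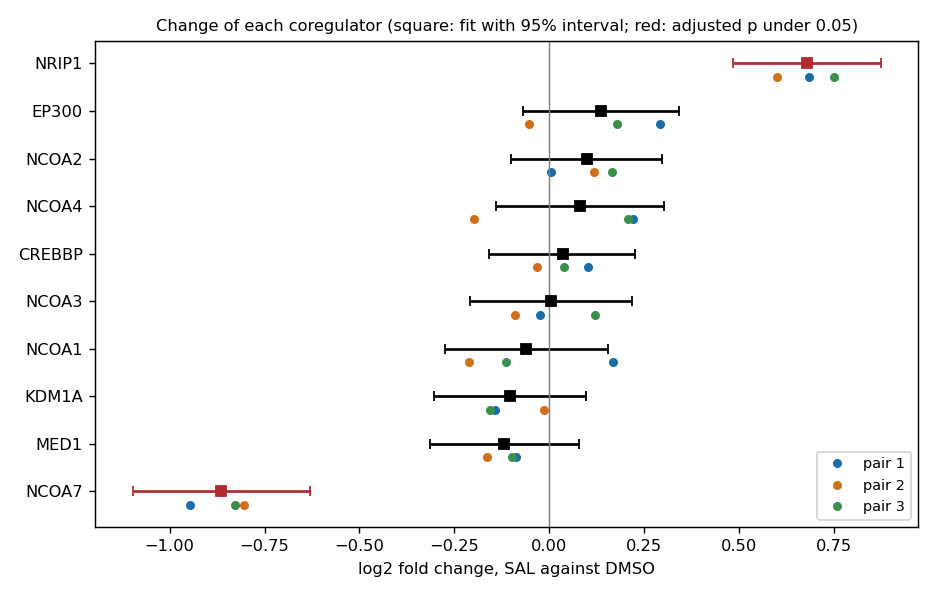
Fitted log2 fold change of SAL against DMSO for each coregulator (x axis, squares) with its 95% interval as a bar, and the change in each of the 3 pairs as dots. The bars of the 2 DEGs in red, NRIP1 at 0.68 and NCOA7 at -0.86, lie clear of 0, and the other 8 bars cross it.

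Ratios inside one library need no scaling between libraries, so the balance between coregulators was also read in this way, with counts divided by the length of the canonical transcript. NRIP1 was 0.899, 0.325 and 0.496 times the sum of the p160 genes in DMSO replicates 1, 2 and 3, whereas SAL gave 1.39, 0.519 and 0.817 times. The ratio of this corepressor to the p160 coactivators was therefore higher in SAL in 3 of 3 pairs, by 0.62, 0.67 and 0.72 on the log2 scale (mean 0.67 ± 0.05, SD, n = 3 pairs). Between NRIP1 and NCOA7, the genes that moved in opposite directions, the ratio went from 2.05 to 2.60 in DMSO to 5.45 to 8.07 in SAL. These ratios hold the genes that the test had already called and are given as a description.

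For the paralogs, ratios were read in the same way. EP300 was 1.13, 1.34 and 1.36 times CREBBP per length in DMSO and 1.29, 1.33 and 1.5 times in SAL, a mean change of 0.10 ± 0.11 on the log2 scale. Within the p160 family, NCOA1 made up 36.4%, 49.5% and 47.5% of the sum in DMSO replicates 1, 2 and 3, whereas in SAL it made up 39.3%, 45.0% and 42.9%. NCOA2 made up 33.1% to 39.0% in DMSO and 37.5% to 38.0% in SAL, and NCOA3 17.3% to 24.6% and 17.1% to 23.2%. The NCOA1 to NCOA2 ratio moved by 0.16, -0.33 and -0.28 in the pairs, with no common direction, and NCOA2 to NCOA3 by 0.03, 0.21 and 0.04.

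Per kb of canonical transcript, the order of the members in DMSO was KDM1A (40.7 ± 20.2 CPM per kb, SD, n = 3), NCOA4 (37.9 ± 6.50), EP300 (28.04 ± 14.96), CREBBP (21.3 ± 10.2), NRIP1 (19.8 ± 5.98), MED1 (19.2 ± 9.77), NCOA1 (17.6 ± 8.12), NCOA2 (13.4 ± 4.23), NCOA7 (8.35 ± 2.00) and NCOA3 (7.31 ± 1.69). The ranges of every pair of neighbours in this order overlapped between libraries. Inside single libraries, EP300 was above CREBBP, MED1 above NCOA1 and NCOA2 above NCOA7 in 3 of 3 DMSO libraries, whereas the other neighbours changed places. MED1 and NCOA1 were nearly equal in DMSO replicate 1, at 8.496 and 8.493 CPM per kb. In SAL replicate 1, MED1 was below NCOA1, at 7.995 against 9.543. In SAL, NRIP1 moved from rank 5 to rank 3 at 32.1 ± 11.1 CPM per kb, and NCOA7 from rank 9 to rank 10 at 4.59 ± 1.14, below NCOA3 in 3 of 3 libraries. These levels depend on the transcript length taken, and genes with other main transcripts in these cells would be misplaced.

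**Figure D3:**
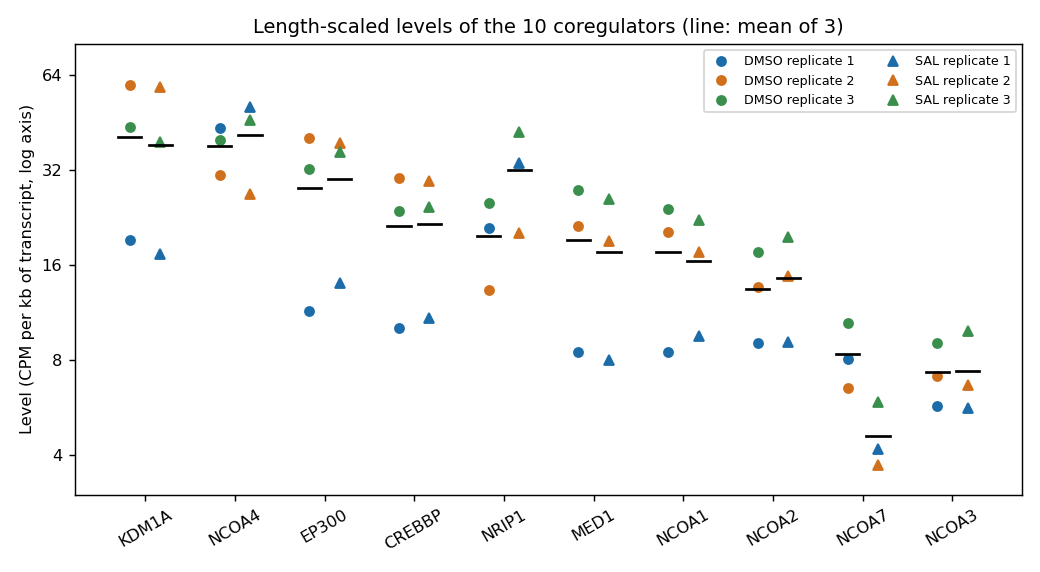
Level of each coregulator per kb of canonical transcript (y axis, CPM per kb, log scale) in each DMSO library (circles) and SAL library (triangles), with the mean of 3 as a line and colors for replicate numbers. NRIP1 is higher and NCOA7 lower in SAL, and in 7 genes the replicate 1 points lie below the other replicates in both groups.

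Most of the spread of the coregulators lay between replicate numbers. In the log2 CPM of the 6 libraries, the replicate number accounted for 89.6% to 99.7% of the sum of squares in the 8 genes that were not DEGs, and the treatment for 0.0% to 1.4%. In NRIP1 these shares were 59.7% and 39.9%, and in NCOA7 they were 29.4% and 70.2%, the only member in which treatment took the larger share. Over all genes tested the medians were 85.4% and 5.90%. The replicate share was above the treatment share in 9 of 10 members and in 14925 of the 16835 genes tested.

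The members followed different patterns over the replicates. In 7 of the 10 (NCOA1, NCOA2, NCOA3, CREBBP, EP300, MED1 and KDM1A) replicate 1 was the lowest in both groups, and in the other 3 (NCOA4, NCOA7 and NRIP1) it was replicate 2. In all genes tested, replicate 1 was lowest in both groups in 37.3% and replicate 3 in 12.3%. The range over replicate numbers was widest in MED1, at 3.24-fold, and narrowest in NCOA7, at 1.59-fold. The replicate 1 libraries also had the largest share of rRNA counts, 27.66% in DMSO and 27.84% in SAL, against 11.87% to 21.99% in the others. This share was higher in SAL than in DMSO in replicate 2 (21.99% against 18.61%) and replicate 3 (17.41% against 11.87%). The part of the rRNA share in the levels and their changes was not tested.

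To place the members among their partners, lists of other coregulators were read from the same fit. Of 45 other coactivators tested, 7 were up-regulated (15.6%) and 2 down-regulated (4.44%), against 11.5% and 9.37% of all genes tested, and the median of their log2 fold changes was 0.03. The smallest adjusted p-values belonged to PIAS1, a SUMO ligase, at 1.26 (SE 0.12, adjusted p = 4.47e-06 from edgeR), and KAT2B (PCAF), an acetyltransferase that binds CREBBP and EP300, at 1.08 (SE 0.15, adjusted p = 8.25e-05). For PIAS1 the levels were 52.4, 33.8 and 49.4 CPM in DMSO and 118.1, 64.9 and 152.3 in SAL, without overlap, and KAT2B rose from 14.3 ± 3.83 to 30.8 ± 11.9 CPM (SD, n = 3), also without overlap. The histone demethylase gene KDM4B and TRIM24, which encodes a chromatin reader, rose by 0.50 and 0.46. WHSC1 (NSD2), a histone methyltransferase gene, and WDR5, a subunit of histone methyltransferase complexes, fell by 0.38 and 0.35. Without replicate 3 there were 2 up-regulated genes in this list, PIAS1 and KAT2B, and 0 down-regulated. Without replicate 1 there were 7 and 5. WDR5 was also lost with DESeq2 and without replicate 2.

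Of 31 other corepressors tested, 5 were up-regulated (16.1%) and 2 down-regulated (6.45%), against the same 11.5% and 9.37%, and the median of their log2 fold changes was -0.01. HMG20B, a subunit of the CoREST complex in which KDM1A works, stood at 47.1 ± 20.6 CPM (SD, n = 3) in DMSO and 88.0 ± 54.6 in SAL and rose by 0.82 on the log2 scale (SE 0.12, adjusted p = 0.000149, edgeR), with 0.47, 1.08 and 0.86 in the pairs. RCOR1, the scaffold of that complex, had a change of -0.13 (adjusted p = 0.369). CTBP2 encodes a CtBP protein, and LCOR encodes a protein that forms repressor complexes with CtBP as NRIP1 does. CTBP2 and LCOR rose by 0.51 and 0.32 (adjusted p = 0.00193 and adjusted p = 0.0321, edgeR), while CTBP1 had -0.17 (adjusted p = 0.275). RCOR1 and CTBP1 were picked after their values were seen. SAP30 of the SIN3 complex rose by 0.49, and TRIM28 and PHB fell by 0.30 and 0.32. NCOR1, a nuclear receptor corepressor also picked after its value was seen, had 0.20 and did not pass the test. Without replicate 3, 1 gene of this list was up-regulated and 0 were down-regulated, and without replicate 2 there were 3 and 1. Without replicate 1 there were 6 and 3, and with DESeq2 there were 2 and 0. Of the genes named, PHB lost its call with DESeq2 and with each replicate left out. LCOR lost it with DESeq2 and without replicate 1 or 3, and SAP30 with DESeq2 and without replicate 2 or 3. TRIM28 lost it with DESeq2 and without replicate 3, and CTBP2 without replicate 3.

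Among 31 Mediator subunits and kinase module genes other than MED1, 2 were up-regulated (6.45%) and 1 was down-regulated (3.23%), again against 11.5% and 9.37%, and the median of their log2 fold changes was -0.04. The kinase gene CDK8 stood at 63.8 ± 12.1 CPM (SD, n = 3) in DMSO and 46.5 ± 10.8 in SAL and changed by -0.46 on the log2 scale (adjusted p = 0.00368, edgeR), and its partner cyclin gene CCNC rose by 0.36 (adjusted p = 0.0253). MED10 rose by 0.55 (adjusted p = 0.0126). The last pair of calls was lost with DESeq2, where 0 genes of this list were up-regulated and 1 was down-regulated, and also without replicate 2. Without replicate 3 no gene of this list was called, and without replicate 1 there were 3 up-regulated and 3 down-regulated. CCNC was not among these 3 up-regulated genes.

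**Figure D4:**
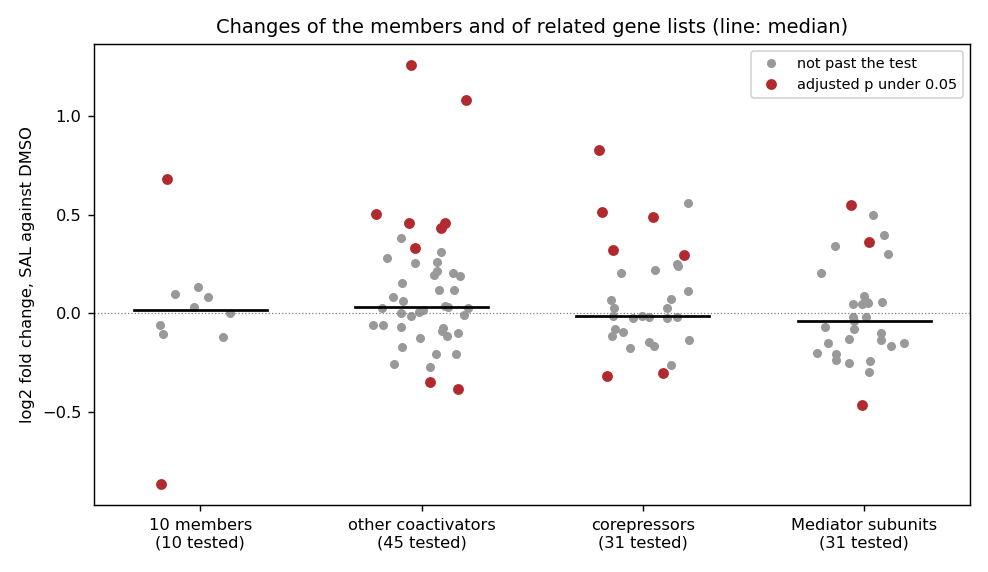
Log2 fold change of SAL against DMSO (y axis) for each gene tested of the 10 members and of 3 related lists, with DEGs in red, other genes in grey and the median of each list as a line. The medians lie between -0.04 and 0.03, and the largest changes belong to PIAS1 at 1.26 and KAT2B at 1.08.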

How the data were processed

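RNA-seq was performed on total RNA of C4-2 cells in 3 DMSO and 3 SAL libraries. The authors removed the first 4 bases and low-quality ends, aligned only R1 against hg19 using TopHat2 2.1.0 and counted reads on exons with htseq-count (HTSeq 0.11.2) and gencode v19 regardless of strand. What they deposited are raw counts for each gene symbol. Groups and replicate numbers come from the titles of the samples. Here 523 rRNA gene symbols were removed, as in the paper, low genes were removed with filterByExpr, and 16835 of 55765 symbols were tested with edgeR 4.0.16 in R 4.3.3 (TMM, robust quasi-likelihood test, Benjamini-Hochberg adjustment). The replicate number was a block, since the paper used a paired test. The deviations of same-numbered libraries from their group means correlated at 0.89, 0.86 and 0.74. A standard error (SE) is the size of a log2 fold change divided by the root of F, and each pair value is the SAL log2 CPM minus the DMSO log2 CPM (prior count 2). Simulated data with far fewer changed genes than were called here were also fitted. There the unadjusted p-values of unchanged genes were near their nominal rate. False calls, however, took a larger share of the calls than the adjusted threshold of 0.05 allows. A simulation with as many changed genes as were called here was not made, so calls near that threshold may be less certain than their adjusted p. Gene positions and lengths come from GENCODE v44 on GRCh37, which matched 33529 symbols directly and 1892 through synonyms, and promoters from RefSeq (GRCh38.p14). Alternatives were DESeq2 1.42.0 with the block, DESeq2 size factors, no block, keeping rRNA genes, dropping the low-count filter, a stricter one (10 counts in each of the libraries), a GC content and exon length correction with the block (84% of tested genes had a value), and each replicate number left out. The members and lists were chosen with earlier results of these data known. The text names all 10 members, KLK3, cell type markers and, of each list, up to 4 DEGs in each direction with the smallest adjusted p. RCOR1, CTBP1 and NCOR1 were named outside this rule, after their values were seen. With the block, the variance of a gene is how much its change from DMSO to SAL varied between the 3 same-numbered pairs of cultures. The test draws this variance towards that of all genes tested. The p-values, standard errors and intervals thus do not rest on a gene's own 3 pairs alone. They do not measure the spread between cultures within a group. All cultures are of 1 cell line, and the 3 libraries a group limit the precision. Some results that the rule would name are not reported here.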

Additional observations from a re-analysis of the deposited data

How the results depend on the processing

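The calls of NRIP1 and NCOA7 held in 9 of 10 alternatives, with log2 fold changes from 0.64 to 0.71 and from -0.91 to -0.82. The exception was the fit with no replicate block, in which 0 members were called higher and 0 lower (NRIP1 0.69 and NCOA7 -0.86, both with an adjusted p of 1.00) and no gene of the 3 related lists was called, 0 in each direction. That fit called 18 genes higher and 3 lower among all genes tested, and with the block 1931 and 1577. DESeq2 with the block called 1290 and 950, and without replicate 3 there were 750 and 483. None of the other 8 members was called under any alternative. NCOA3 changed sign around 0, at -0.004 with DESeq2, -0.003 with DESeq2 size factors and from -0.058 to 0.036 with a replicate left out. NCOA1 ran from -0.16 to 0.00 with a replicate left out, and CREBBP was at -0.035 with the GC content and exon length correction. In that correction, 5 other coactivators and 2 Mediator genes were lower. DESeq2 with the block called 1 other coactivator lower, 2 corepressors higher and 0 lower, and 0 Mediator genes higher. With a replicate left out, other coactivators ranged from 2 to 7 higher and 0 to 5 lower, corepressors from 1 to 6 and 0 to 3, and Mediator genes from 0 to 3 and 0 to 3. The cause of these differences was not tested. Fits without a replicate have fewer samples. At this depth the intervals of the members span about 0.2 on either side on the log2 scale.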
